A study of Mus musculus with 2 samples.

Results

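The genes of polyamine synthesis and turnover were followed in Gr-1+ CD11b+ cells, a surface-marker gate that takes in neutrophils and monocytes. The members are the 10 gene symbols Odc1, Amd1, Amd2, Srm, Sms, Oaz1, Oaz2, Azin1, Sat1 and Smox, and all 10 were found among the 24346 symbols of the tables. They were selected on their place in the pathway with their values in these libraries already known, so every difference between the libraries below is a description. The BALB/c donors of both libraries had been on 3% DSS (dextran sulfate sodium, which inflames the colon) over 6 days. In the ATPγS group (n = 1) the isolated cells were given 100 µM ATPγS, a slowly hydrolysed analogue of ATP, for 2.5 hours. In the control group (n = 1) the cells were labelled as stimulated without ATPγS, and the same 2.5 hours are recorded for them. How many mice were pooled in a library is not given in the sources used here. A single library stands for each group, so replicate error is unknown and no test was made, and each interval below is a 95% interval that covers counting error only. In bulk RNA, fewer cells of a type and less RNA per cell cannot be told apart.

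Polyamines are small positively charged molecules that bind nucleic acids and are needed for translation and growth. Ornithine decarboxylase, the product of Odc1, makes putrescine, and spermidine synthase (Srm) and spermine synthase (Sms) add aminopropyl groups that come from decarboxylated S-adenosylmethionine, made by the Amd1 and Amd2 products. Antizymes (Oaz1, Oaz2) send ornithine decarboxylase to the proteasome, and the antizyme inhibitor (Azin1) takes antizyme away from it. Sat1 encodes the acetyltransferase that marks spermidine and spermine for export or breakdown, and Smox encodes the oxidase that turns spermine back into spermidine and releases hydrogen peroxide. In macrophages, arginase supplies the ornithine for this pathway.

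Row by row, transcripts of the turnover enzymes were the most abundant members in both libraries. Oaz1 summed with its pseudogene copy Oaz1-ps stood above Smox, at 662 FPKM with ATPγS and 663 FPKM in the control. Sat1 stood at 993 FPKM (fragments scaled to transcript length and to the number mapped) in the ATPγS library and at 1041 FPKM in the control library, and Smox was 1.55-fold higher with ATPγS, at 385 FPKM against 248 FPKM. Of the synthesis genes, Odc1 hardly differed, at 72.9 FPKM with ATPγS and 77.2 FPKM in the control. Sms was 7.02-fold lower with ATPγS, at 2.05 FPKM against 14.4 FPKM. The Amd1 row was listed at 0.147 FPKM with ATPγS against 43.6 FPKM in the control, while the row of its near-identical copy Amd2 stood at 79.8 FPKM against 39.4 FPKM, so that the sum of both rows was 79.96 FPKM with ATPγS and 83.1 FPKM in the control.

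The sequences of these copies come first because they set how the rows can be read. Amd1 lies on chromosome 10 (40287458 to 40302186, minus strand, GRCm38) and has 8 exons. Amd2 lies on the same chromosome (35708675 to 35711892, minus strand) in 1 exon. Over 3198 aligned transcript bases the copies differed at 10 positions (99.7% identity) and in 4 gap bases. Of the differing positions 1 lay in the 5′ UTR, 1 in the coding part and 8 in or after the stop codon. The coding difference was G1124C, counted from 1 at the first base of the Amd1 transcript, with the Amd1 base first. It is shown in capitals in these 60 bases around it, from chr10:40290161-40290220 (exon 7 of Amd1) and chr10:35710739-35710798 (Amd2), both on the minus strand, as the annotated transcripts of GENCODE M21 give them.
Amd1 coding part: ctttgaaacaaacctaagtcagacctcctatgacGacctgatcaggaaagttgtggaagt
Amd2 coding part: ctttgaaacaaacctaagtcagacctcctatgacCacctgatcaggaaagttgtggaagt

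The copies part where transcription starts. The RefSeq promoter windows (GRCm38.p6, 250 bases before to 50 bases after the start site) lie at chr10:40302139-40302438 for Amd1 and at chr10:35711842-35712141 for Amd2, both on the minus strand. Capitals mark the longest run of bases that both windows share. It is 48 bases long and, counted from the RefSeq start sites, begins at base 3 for Amd1 and at base 1 for Amd2, and upstream of it no shared run exceeded 7 bases.
Amd1 promoter: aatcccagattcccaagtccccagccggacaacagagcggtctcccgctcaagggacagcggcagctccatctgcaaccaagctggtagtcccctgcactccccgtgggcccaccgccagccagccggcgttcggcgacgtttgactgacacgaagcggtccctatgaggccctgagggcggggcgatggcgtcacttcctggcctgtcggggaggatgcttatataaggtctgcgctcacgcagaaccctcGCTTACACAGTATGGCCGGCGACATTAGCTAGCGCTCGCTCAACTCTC
Amd2 promoter: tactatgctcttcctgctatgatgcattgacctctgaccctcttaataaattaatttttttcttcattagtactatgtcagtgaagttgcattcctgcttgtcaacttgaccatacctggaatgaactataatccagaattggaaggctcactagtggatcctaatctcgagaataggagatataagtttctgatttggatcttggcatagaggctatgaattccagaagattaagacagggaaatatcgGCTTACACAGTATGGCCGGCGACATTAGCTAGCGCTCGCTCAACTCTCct
The Amd1 window held 63.0% G and C and the Amd2 window 40.7%, where the median promoter held 52.7%. A row-wise difference between Amd1 and Amd2 therefore turns on few bases, while the promoters that would drive the copies have little sequence in common.

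Oaz1 has a copy of the same kind. Oaz1 lies on chromosome 10 (80826656 to 80829290, plus strand), and the processed pseudogene Oaz1-ps on chromosome 17 (17345456 to 17346140, minus strand). Over 684 aligned bases they differed at 1 position and in 1 gap base (99.9% identity). The antizyme frameshift site, where the ribosome must slip by a base to pass a stop codon and make full-length antizyme, is in capitals below. These 60 bases are at chr10:80828268-80828327 (Oaz1, plus strand), chr17:17345904-17345963 (Oaz1-ps, minus strand) and chr9:65686245-65686304 (Oaz2, plus strand).
Oaz1 site: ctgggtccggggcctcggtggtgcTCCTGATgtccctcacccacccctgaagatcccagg
Oaz1-ps site: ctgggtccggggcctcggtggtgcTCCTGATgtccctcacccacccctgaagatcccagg
Oaz2 site: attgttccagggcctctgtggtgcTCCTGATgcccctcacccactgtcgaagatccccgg
The Oaz1 and Oaz1-ps stretches differed at 0 of 60 bases, and the Oaz2 stretch differed from that of Oaz1 at 11.

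How much of each transcript can be placed on 1 gene was measured as the share of its 50-base and 100-base windows that also occur, base for base, in a transcript of another gene. For Amd1 this was 87.6% of the 50-base windows and 76.4% of the 100-base windows, and for Amd2 85.7% and 72.9%. The pseudogenes Amd-ps3 and Amd-ps4, whose own levels were not analysed here, share 28.7% and 23.9% of the 50-base windows of Amd1. Oaz1 shared 53.9% and 43.0%, and Oaz1-ps 92.1% and 79.7%. Odc1 shared 42.2% of its 50-base windows, mainly with processed pseudogenes, and 19.6% of its 100-base windows. Sms shared 28.7% and 27.7%, with the pseudogene Sms-ps as the main partner. The other members shared between 0% (Smox) and 12.0% (Oaz2) of their 50-base windows. The reference is of C57BL/6J mice and the cells were BALB/c, so bases that differ between the strains are not covered by these shares.

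**Figure D1:**
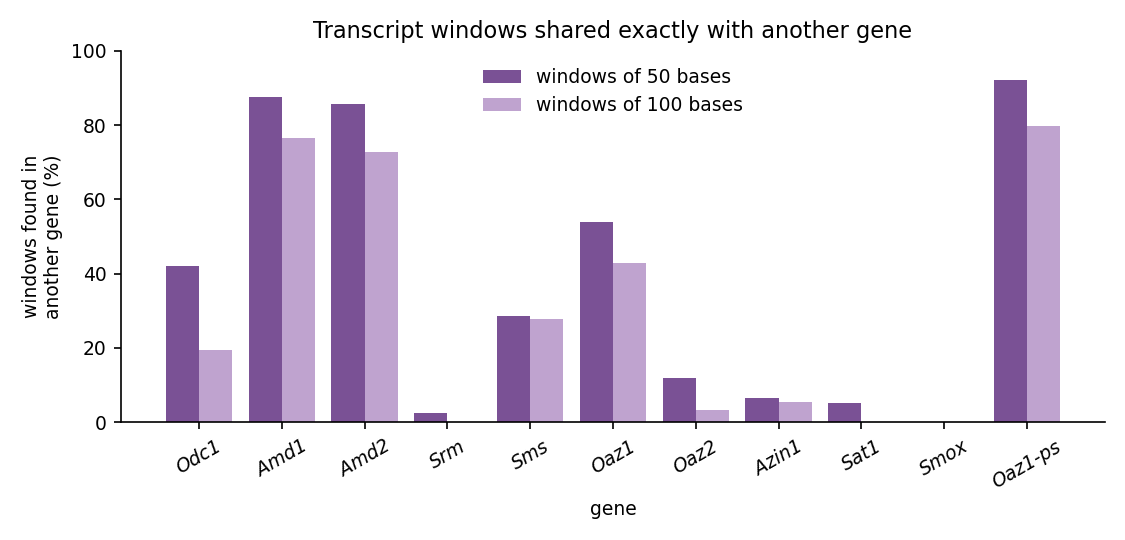
Share of transcript windows of 50 bases (dark bars) and 100 bases (light bars), in percent, that occur exactly in a transcript of another gene, for the 10 members and Oaz1-ps. Amd1, Amd2 and Oaz1-ps exceed 70% at both lengths, and Smox stands at 0%.

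Depth and markers of cell content differed between the libraries. Read from the steps of low values, the totals were about 2856000 fragments in the ATPγS library and 2142000 in the control library, a ratio of 1.33. Itgam, which encodes CD11b, stood at 144 FPKM with ATPγS and 112 FPKM in the control, and the neutrophil transcripts S100a8 and S100a9 were the most abundant of the markers. Ly6g was not analysed here. Markers of other cells were present in both libraries, and no marker of these lists was listed at exactly 0. Hbb-bs, an erythroid marker, stood at 0.028 FPKM with ATPγS and 0.056 FPKM in the control, about 0 reads in each. The summed level of 10 monocyte and macrophage markers was 567 FPKM with ATPγS and 446 FPKM in the control, with 1 at least 2-fold higher. Within that list 4 of 10 had a log2 ratio below 0. Adgre1, which made up much of the sum, stood at 215 FPKM with ATPγS and 149 FPKM in the control, while Ccr2 stood at 8.82 FPKM and 14.7 FPKM and Cx3cr1 at 1.301 FPKM and 3.07 FPKM in the same order. For 10 T and NK cell markers the sum was 156 FPKM and 306 FPKM in the same order. Of these 6 were at least 2-fold lower, as were 9.91% of all genes that averaged 1 FPKM or more. Within that list 2 had a log2 ratio above 0, and Gzma, a large part of the sum, stood at 66.1 FPKM with ATPγS and 45.8 FPKM in the control. For 8 B and plasma cell markers the sum was 909 FPKM and 1279 FPKM in the same order, with 1 past 2-fold in each direction. The sum was 84.6 FPKM with ATPγS and 114 FPKM in the control for 5 epithelial markers. For 6 erythroid and platelet markers the sum was 721 FPKM and 776 FPKM in the same order, mostly from Hba-a1 (616 FPKM and 725 FPKM). Of these, 5 averaged 1 FPKM or more, and 2 of them had a log2 ratio below 0. The other 3 passed 2-fold on the higher side. They were Pf4 (52.9 FPKM with ATPγS and 13.6 FPKM in the control), Itga2b (6.64 FPKM and 1.57 FPKM) and Alas2 (17.9 FPKM and 7.36 FPKM). Beside such counts of higher markers stands a share of 13.8% among all genes that averaged 1 FPKM or more. The part of these other cells in the differences below was not tested.

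Counted on the log2((ATPγS FPKM + 1) / (control FPKM + 1)) scale, 0 of the 10 members were at least 2-fold higher with ATPγS, 2 were at least 2-fold lower (Amd1 and Sms) and 8 lay between. Of all 18311 genes that averaged 1 FPKM or more over both libraries, 13.8% passed 2-fold on the higher side and 9.91% on the lower side. Among the 6125 genes that averaged 10 FPKM or more these shares were 4.29% and 7.38%. Since the members were chosen with this contrast known, nothing is read from their count. Amd2, at a log2 ratio of 0.9995, lay just inside 2-fold, and Sms, at -2.34, was the nearest member outside it. With Amd1 and Amd2 as 1 summed row, 1 of 9 was at least 2-fold lower. The members' median log2 ratio was -0.31 and that of all genes counted was 0.01, or -0.13 among those that averaged 10 FPKM or more.

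**Figure D2:**
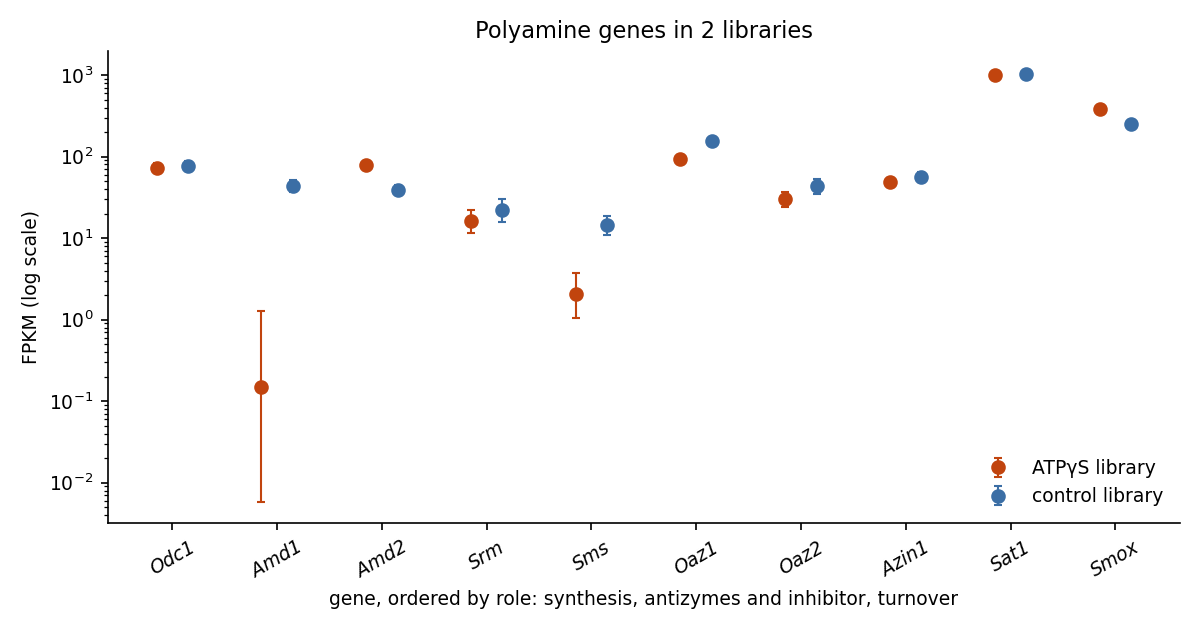
FPKM (log scale) of the 10 members in the ATPγS library (red, left of each pair) and the control library (blue, right of each pair); points are the listed values, bars their 95% counting intervals, and each point is 1 library. Smox, the lower of the turnover genes, still reaches 248 FPKM in the control, and Amd1 and Sms are the members set farthest apart.

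Of the synthesis genes, Odc1 carries the first and usually limiting step. Its 72.9 FPKM with ATPγS and 77.2 FPKM in the control gave a ratio of 0.94 (counting interval 0.776 to 1.15), from about 232 and 184 reads. The pseudogene row Gm15645, which shares 4.08% of the 50-base windows of Odc1, stood at 87.2 FPKM with ATPγS and 99.3 FPKM in the control, and the AW146154 row, which shares 11.2% of them, at 3.30 FPKM and 2.49 FPKM. Myc, a transcription factor known to act on Odc1, stood at 41.8 FPKM with ATPγS and 44.4 FPKM in the control. Both Odc1 and Myc thus stayed near their control values.

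Amd1 was listed at 0.147 FPKM with ATPγS, from about 1 read, and at 43.6 FPKM in the control, from about 142 reads. The ratio of 0.0034 had a counting interval of 0.000133 to 0.0299, and Amd1 ranked 16 from the lowest of 18311 genes. Such a drop was uncommon. Of 3634 genes at 20 FPKM or more in the control, 19 (0.523%) were under 1 FPKM with ATPγS, and of 3359 genes at 20 FPKM or more with ATPγS, 29 (0.863%) were under 1 FPKM in the control. Amd2 moved the other way, with 79.8 FPKM in the ATPγS library and 39.4 FPKM in the control library, a ratio of 2.02 (1.76 to 2.33).

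Summed, the pair stood at 79.96 FPKM with ATPγS and 83.1 FPKM in the control, a ratio of 0.963 (0.853 to 1.09). This interval was moved to the ratio of summed FPKM, from about 734 and 413 reads in the same order. Those reads use mean transcript lengths, 1514 bases for Amd1 and 3218 for Amd2. Scaled to depth, the reads do not themselves give this ratio but a higher one, on the other side of no difference. Amd1 made up 0.184% of the sum with ATPγS and 52.5% in the control. The separate rows moved in opposite directions. Because the interval of the summed ratio was placed on the ratio of summed FPKM, it cannot decide whether the pair differed, and nothing is read from it. This interval was not recalculated with reads from the longest transcript. Whether the reads of the ATPγS library came from Amd2 or were placed there was not tested.

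**Figure D3:**
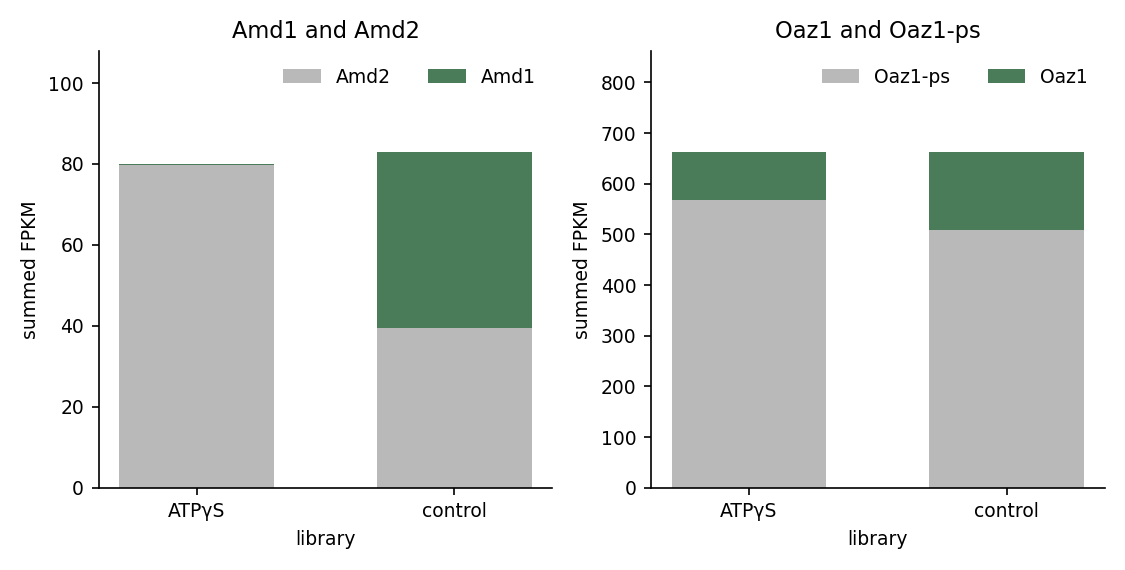
Summed FPKM (linear axis from 0) of Amd1 with Amd2 (left panel) and of Oaz1 with Oaz1-ps (right panel), ATPγS library left and control library right in each panel; green is the parent gene, grey the copy. The green part shrinks to 0.147 FPKM for Amd1 and to 93.5 FPKM for Oaz1 with ATPγS, while the full bars are of nearly equal height.

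Srm, which makes spermidine, stood at 16.0 FPKM with ATPγS and 22.1 FPKM in the control. The ratio of 0.726 had a counting interval of 0.458 to 1.17, which includes no difference, from about 39 and 40 reads. Sms, which makes spermine, was listed at 2.05 FPKM with ATPγS (about 11 reads) and at 14.4 FPKM in the control (about 57 reads). Its ratio of 0.143 (0.0684 to 0.279) placed it 130 from the lowest of 18311 genes. The level of Sms-ps was not analysed here, and Gm8234, a pseudogene row that shares 3.22% of the 50-base windows of Sms, stood at 25.6 FPKM and 28.8 FPKM in the same order. Per length, the level of Srm was 7.81 times that of Sms with ATPγS and 1.53 times in the control.

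The antizyme genes were both lower as listed. Oaz1, the more abundant antizyme, stood at 93.5 FPKM with ATPγS and 154 FPKM in the control, a ratio of 0.607 (0.516 to 0.715). The Oaz1-ps row was several times higher than its parent in both libraries, at 569 FPKM with ATPγS and 509 FPKM in the control, a ratio of 1.12 (1.02 to 1.23). The sum of both rows was 662 FPKM with ATPγS and 663 FPKM in the control, a ratio of 0.998 (0.922 to 1.08), with Oaz1 making up 14.1% and 23.2% of it in the same order. As with Amd1, the lower parent row was matched by a higher copy row. The sum of the Oaz1 rows did not differ beyond its counting interval, which was also placed on the ratio of summed FPKM.

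Oaz2, the second antizyme gene, stood at 29.9 FPKM with ATPγS and 43.3 FPKM in the control, a ratio of 0.691 (0.512 to 0.926). Its pseudogene Oaz2-ps, whose level was not analysed here, shares 10.3% of its 50-base windows. Azin1, which frees ornithine decarboxylase from antizyme, stood at 49.1 FPKM with ATPγS and 56.2 FPKM in the control, with a ratio of 0.874 and an interval that includes no difference (0.732 to 1.04). The level of Odc1 relative to Oaz1 and Oaz2 together was 0.591 with ATPγS and 0.391 in the control. With Oaz1-ps added to the antizymes it was 0.105 and 0.109, so the difference in this balance rested on how the Oaz1 copies are counted. The level of Azin1 relative to Odc1 was 0.674 with ATPγS and 0.728 in the control.

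Among the turnover genes, Sat1 ranked 63 among all genes of the ATPγS library and 59 in the control library. Its 993 FPKM and 1041 FPKM gave a ratio of 0.955 (0.904 to 1.01), an interval that includes no difference at about 2940 and 2310 reads. Smox stood at 385 FPKM with ATPγS and 248 FPKM in the control, a ratio of 1.55 (1.42 to 1.70). It ranked 208 in the ATPγS library and 348 in the control. Smox was the 1 member whose higher value with ATPγS had no copy row beside it, since none of its 50-base windows occurred in another gene. The level of Smox relative to Sat1 was 0.387 with ATPγS and 0.238 in the control.

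The promoter window of Smox (chr2:131491612-131491911, plus strand, GRCm38.p6) is shown because this gene was higher with ATPγS and has no copy. Capitals mark TGACNNNGC, the core of the antioxidant response element bound by NRF2, whose first base lies at -193 from the start site.
Smox promoter: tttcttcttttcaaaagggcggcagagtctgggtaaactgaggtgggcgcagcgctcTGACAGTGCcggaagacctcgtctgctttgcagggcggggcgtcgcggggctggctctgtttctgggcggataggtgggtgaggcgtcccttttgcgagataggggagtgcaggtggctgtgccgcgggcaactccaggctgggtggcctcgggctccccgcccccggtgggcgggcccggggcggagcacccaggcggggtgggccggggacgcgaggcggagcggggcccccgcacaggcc
This core was searched on both strands and is found in 12.5% of 27025 promoter windows. Oaz1, the 1 other member with it, was lower with ATPγS as listed. Nfe2l2, which encodes NRF2, stood at 214 FPKM with ATPγS and 229 FPKM in the control. Promoter windows were found for 8 members, with 2 windows for Sms, and for Srm and Azin1 none was used. The E-box CACGTG of MYC and MAX was found in 1 of the 2 windows of Sms, in no other window of these 8 members, and in 7.24% of all promoters. TGACG, a core of the cAMP response element, which can overlap the TGACNNNGC core, was found in the windows of Amd1, Odc1 and Oaz1 and in 21.02% of all promoters. The full element TGACGTCA (1.88% of all promoters) and the AP-1 site TGANTCA (7.93%) were found in 0 of the 8. The GC box GGGCGG of SP1 was found 6 times in the Smox window, not marked above, and in 35.9% of all promoters. It was also found for Amd1, Odc1, Sms, Sat1 and Oaz2. The TATA box TATAAA was found for Oaz1 alone of these members and in 14.2% of all promoters. Sites outside these windows, such as in introns, were not searched.

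In each library the members, taken row by row and without Oaz1-ps, spread over a wide range of levels. With ATPγS the order of levels was Sat1, Smox, Oaz1, Amd2, Odc1, Azin1, Oaz2, Srm, Sms and Amd1. In the control it was Sat1, Smox, Oaz1, Odc1, Azin1, Amd1, Oaz2, Amd2, Srm and Sms. The counting intervals of neighbours overlapped for Oaz1 and Amd2, for Amd2 and Odc1 and for Sms and Amd1 with ATPγS. In the control they overlapped for Azin1 and Amd1, for Amd1 and Oaz2, for Oaz2 and Amd2 and for Srm and Sms. Sat1 and Smox together made up 1378 FPKM with ATPγS and 1288 FPKM in the control, which was 8.06 times and 6.55 times the sum of the 5 synthesis genes.

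**Figure D4:**
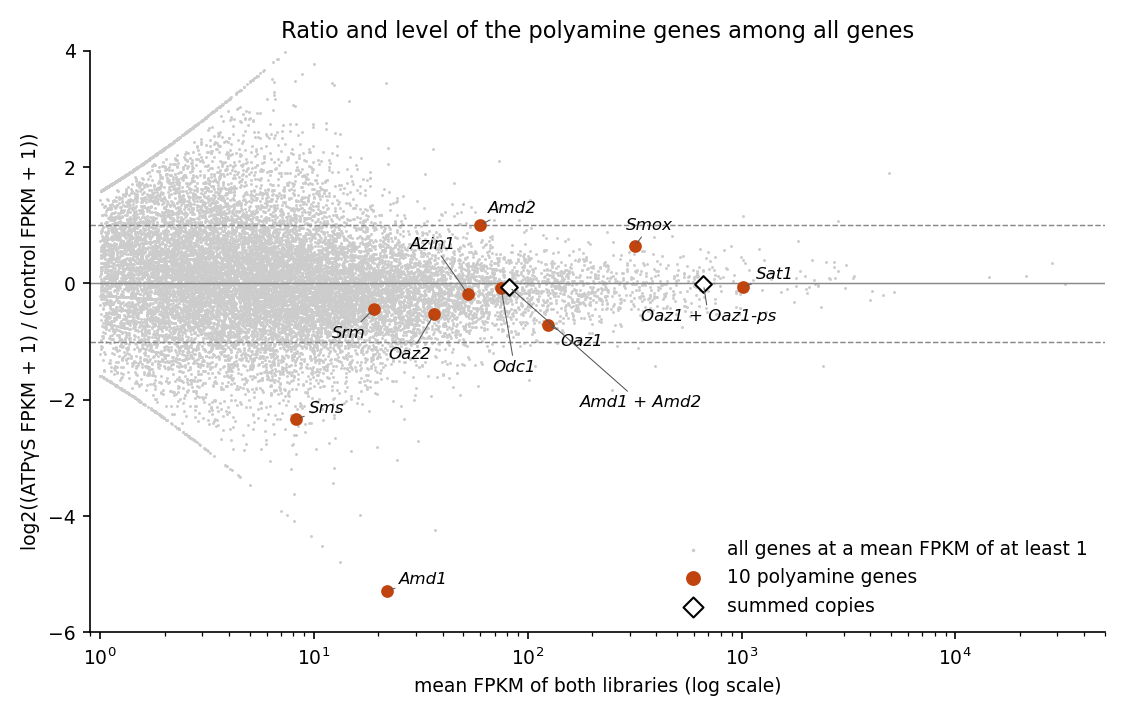
Log2 ratio with 1 FPKM added, ATPγS over control, against mean FPKM of both libraries (log scale) for the genes that averaged 1 FPKM or more (grey), the 10 members (red) and the summed copies (open diamonds); dashed lines mark 2-fold, and 51 genes lie beyond the vertical axis. Amd1 and Sms fall below the lower dashed line, and the summed pairs Amd1 + Amd2 and Oaz1 + Oaz1-ps lie at -0.05 and -0.0024.

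Around the members, 46 genes were counted, of which 5 encode transcription factors known to act on Odc1 or Sat1. The others belong to the supply, transport, breakdown or use of polyamines. Of all 46 genes, 43 averaged 1 FPKM or more. With ATPγS 6 passed 2-fold on the higher side, 4 on the lower side and 33 lay between, with a median log2 ratio of -0.09, set beside the 13.8% and 9.91% of all genes. The 10 past 2-fold were of low level, and the highest of them, Apip, averaged 13.5 FPKM. The same shares of all genes stand beside each list below, and nothing is read from the counts of such short lists.

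Of 10 genes of methionine, S-adenosylmethionine and the salvage of methylthioadenosine, the by-product of both aminopropyl steps, 2 were at least 2-fold higher with ATPγS and 3 at least 2-fold lower. The median log2 ratio was -0.46, and 6 of the 10 lay below 0, as did 9075 of all 18311 genes. Each of the 3 lower genes rests on few reads, about 8 for Apip, 7 for Mri1 and 3 for Enoph1 with ATPγS. Apip, a salvage dehydratase, stood at 4.58 FPKM with ATPγS and 22.4 FPKM in the control, a ratio of 0.204 (0.0792 to 0.447). Enoph1, of the enolase-phosphatase that acts after it, stood at 0.859 FPKM and 9.01 FPKM in the same order (ratio 0.0953, 0.0188 to 0.324), and Mri1, of the isomerase before it, at 1.96 FPKM and 5.42 FPKM (ratio 0.361, 0.128 to 0.993). Adi1, of the dioxygenase at its end, did not reach 2-fold, at 10.2 FPKM with ATPγS and 17.3 FPKM in the control. Mtap, of the phosphorylase that opens the route, stood at 6.93 FPKM and 4.94 FPKM in the same order. Of the other genes of the list, Mat2a, of the synthetase of S-adenosylmethionine outside the liver, hardly differed (164 FPKM with ATPγS and 159 FPKM in the control), and its regulatory subunit Mat2b stood at 46.1 FPKM and 88.6 FPKM. The low genes Mat1a (3.23 FPKM with ATPγS and 0.884 FPKM in the control) and Ahcy (10.1 FPKM and 4.04 FPKM) passed 2-fold on the higher side. Their control values rest on about 5 and 10 reads, with intervals of the ratio of 1.28 to 11.6 and 1.19 to 5.63.

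In the other oxidation and acetylation genes, 2 of 4 were at least 2-fold higher with ATPγS and 1 was at least 2-fold lower. Of all genes, 13.8% and 9.91% passed 2-fold on these sides. The median log2 ratio of the 4 was 1.0025, and nothing is read from so few genes. Paox, an oxidase of acetylated polyamines, stood at 16.0 FPKM with ATPγS and 5.23 FPKM in the control, a ratio of 3.06 (1.80 to 5.81). Aoc1, a diamine oxidase, stood at 9.72 FPKM with ATPγS and 3.23 FPKM in the control, a ratio of 3.01 (1.62 to 5.74). Sat2, a relative of Sat1, stood at 1.22 FPKM with ATPγS and 6.50 FPKM in the control, a ratio of 0.187 (0.0316 to 0.63). Reads were about 67 and 16 for Paox, 55 and 14 for Aoc1 and 3 and 13 for Sat2, in the same order. Oaz3, a further antizyme gene of this list, stood at 9.95 FPKM with ATPγS and 5.91 FPKM in the control, with an interval of its ratio that includes no difference (0.876 to 3.61).

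Of 11 arginine and ornithine genes, 1 was at least 2-fold higher with ATPγS and 0 at least 2-fold lower, with a median log2 ratio of 0.26. The higher gene was Azin2, of a second antizyme inhibitor, at 5.85 FPKM with ATPγS and 1.55 FPKM in the control (ratio 3.78, 1.47 to 13.01). Its control value rests on about 5 reads. Arg2, of mitochondrial arginase and the leading gene here by level, stood at 389 FPKM with ATPγS and 469 FPKM in the control, a ratio of 0.829 (0.772 to 0.891). Arg1, the cytosolic arginase, was low, at 5.15 FPKM and 7.45 FPKM in the same order. Oat, which links ornithine to glutamate and proline, stood at 69.1 FPKM with ATPγS and 63.9 FPKM in the control, and Asl, of argininosuccinate lyase, at 14.004 FPKM and 22.6 FPKM.

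Of 9 transport genes, 1 was at least 2-fold higher with ATPγS, Slc12a8 (3.91 FPKM with ATPγS and 1.02 FPKM in the control), and 0 were at least 2-fold lower, with a median log2 ratio of 0.20. The control value of Slc12a8 rests on about 5 reads, and the interval of its ratio is 1.41 to 12.5. Slc3a2, of a heavy chain of amino acid transporters, has also been tied to polyamine transport. It stood at 319 FPKM with ATPγS and 225 FPKM in the control, a ratio of 1.41 (1.27 to 1.58). Atp13a2, of a lysosomal polyamine exporter, stood at 8.51 FPKM and 10.5 FPKM in the same order, and Atp13a3, of a related transporter, at 10.1 FPKM and 8.26 FPKM.

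Spermidine is also the donor of hypusine, a modified lysine of the translation factor eIF5A. Of the 4 genes of this step 0 reached 2-fold, with a median log2 ratio of -0.16. Eif5a stood at 319 FPKM with ATPγS and 372 FPKM in the control, a ratio of 0.858 (0.784 to 0.939). The modifying enzymes were lower in level, with Dhps at 25.2 FPKM with ATPγS and 16.5 FPKM in the control and Dohh at 17.0 FPKM and 20.3 FPKM. Of the 5 genes of transcription factors known to act on Odc1 or Sat1, 0 reached 2-fold, with a median log2 ratio of -0.12, and Mxd1, which competes with MYC for MAX, was the most abundant at 360 FPKM with ATPγS and 390 FPKM in the control.

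**Figure D5:**
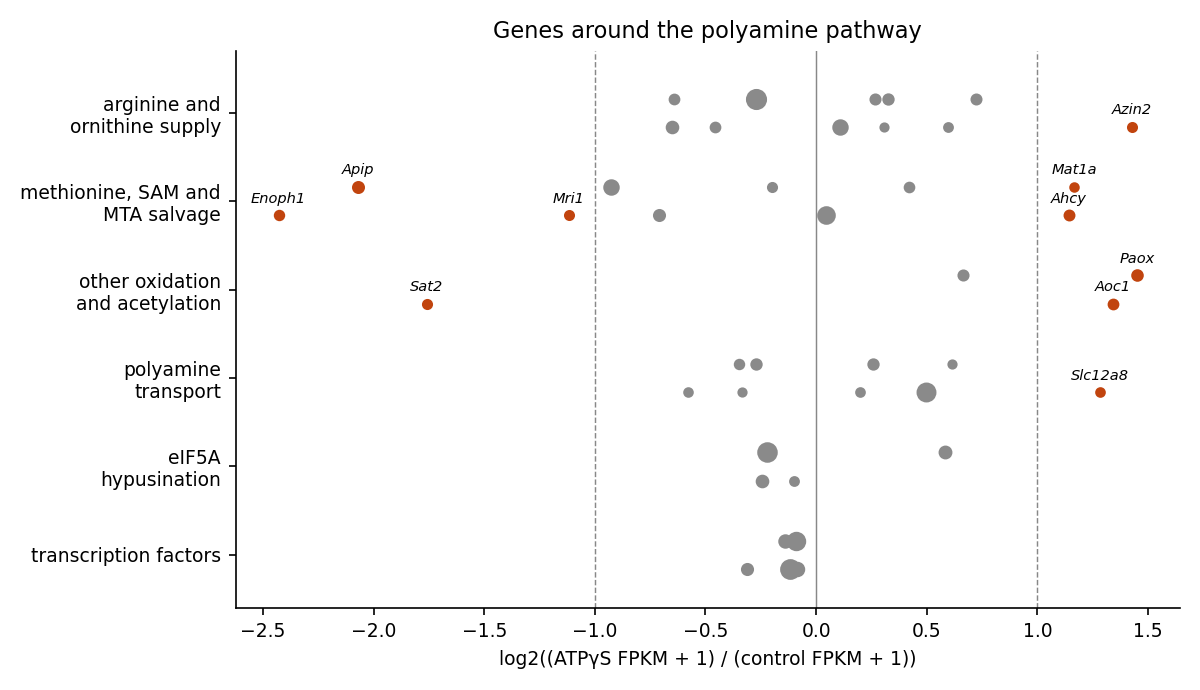
Log2 ratio with 1 FPKM added, ATPγS over control, of 43 genes around the polyamine pathway in 6 lists; each point is a gene, its size grows with mean FPKM, dashed lines mark 2-fold, and genes past it are red and named. Of the red points 6 lie on the higher side and 4 on the lower side, where Enoph1 is farthest out.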

How the data were processed

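RNA was measured in 2 libraries, made per the labels' protocols with the SMART-Seq HT and Nextera kits, which do not mark strand. The authors deposited FPKM per gene symbol. The submitters' processing notes name Cufflinks 2.2.1, SAMtools 0.1.19, Bowtie2 2.2.3 and TopHat2 2.0.13, and the build mm10. Which annotation and options were used, and how reads that match several genes were placed, is not given in the sources used here. The micro sign of the dose is read from a symbol-font character in the label.

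Members, lists and counts were chosen with earlier results of these data known. Named were all members, rows of their copies marked -ps and, of each wider list, genes past 2-fold that averaged 1 FPKM or more and the 3 most abundant, and other genes were named after their values were seen. Ratios are of FPKM, and counts use 1 FPKM added. The depth is the total at which FPKM × coding length came out whole most often in 1252 olfactory and vomeronasal receptor genes with 1 coding exon. Within 0.05 reads, 70.5% of values under 10 reads with ATPγS and 69.9% in the control were whole, where an even spread gives 10%. Reads are approximate and use mean transcript lengths of GENCODE M21 (GRCm38, the build of mm10), where 95.7% of symbols were found. Intervals are exact binomial (ratios) and exact Poisson (levels), and for sums are centred on the ratio of summed FPKM. The depth, fold and interval steps were tested on simulated counts read back with the same lengths. Reads shared between genes and errors in transcript length were not simulated, so the test does not cover them. Python 3.11.15, scipy 1.17.1 and Biopython 1.88 were used.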

Additional observations from a re-analysis of the deposited data

How the results depend on the processing

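No paired analysis was possible because each group has 1 library, and for the same reason none could be left out. The count of members at least 2-fold higher was 0 as reported and 1 with a pseudocount of 0.1 or after rescaling both libraries to equal sums or to a median ratio of 0 (that member was Amd2), and 2 at 1.5-fold. The count lower, 2, was 3 at 1.5-fold and 1 with Amd1 and Amd2 summed, also with Oaz1 and Oaz1-ps summed, which was added after seeing the data. The members' log2 ratio was -0.31 as a median and -0.80 as a mean, which Amd1 and Sms pull down. Of the wider genes, 6 higher and 4 lower became 1 and 2 with a pseudocount of 5, 3 and 1 at a mean FPKM of at least 5, and 10 and 8 at 1.5-fold, and 0 were higher at 3-fold. Pseudocounts and the same sum left the sign of all 10 members. Rescaling to a median of 0 shifted log2 ratios by 0.13 and turned Odc1 and Sat1, so neither has a direction. It multiplied ATPγS values by 1.095, enough to carry upper bounds such as those of Oaz2 (0.926) and Eif5a (0.939) past no difference. With reads from the longest transcript, the upper bound of Azin1 fell to 0.978, below no difference. At this depth, Sms, the salvage genes and the other wider genes past 2-fold rest on few reads in the library where they were lower.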
